A study of Mus musculus with 48 samples.

Results

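Airspace macrophages from 6 male mice were compared at day 21 after bleomycin, 3 wild-type (WT) mice and 3 Siglec-F knockout (KO) mice, out of 24 mice in the series. All 6 had received 2.5 units/kg of bleomycin by the IT route, the macrophages were recovered by bronchoalveolar lavage (BAL), and mRNA libraries were sequenced in bulk, 1 column of counts per mouse. The mice were chosen by their labels of genotype, treatment and day, and no measured value entered that choice. The other 18 mice were naive mice (labelled saline control, day 0) and mice at days 7 and 14 after bleomycin, 3 of each genotype at each time. They entered the estimate of spread and, where named, served as references. How the Siglecf allele was made, the strain, the age, and how macrophages were separated from the other lavage cells are not stated in the labels. Nothing in the labels says whether the mice of a group were litter mates, so the p-values measure only the spread between the mice sampled. That spread was estimated within groups over all 8 groups together, not from the 6 day 21 mice alone.

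Siglec-F is a sialic acid-binding receptor with inhibitory motifs in its cytoplasmic tail, and in the mouse lung it marks resident alveolar macrophages and eosinophils. Bleomycin injures the alveolar epithelium. Monocytes then enter the airspaces, become macrophages and pass through a stage that expresses Spp1, Gpnmb, Trem2 and Fn1, which has been linked to fibroblast activation, before they take on the resident programme. Day 21 falls in the late fibrotic phase of this model, so the comparison asks how macrophages with and without Siglec-F differ once fibrosis is established.

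The 6 libraries held 29963817 to 40082161 counts each, and 12634 of 24411 listed genes passed a filter on low counts. Values below are counts scaled to library size after TMM normalization (CPM), and values for the 3 mice of a group are in the order of mouse 1, 2 and 3. Fold changes are log2 of KO over WT with their standard error (SE), from the edgeR quasi-likelihood test on all 24 mice. A gene is said to be called, or to have risen or fallen, when its p after Benjamini-Hochberg adjustment over all 12634 genes was under 0.05. The 3 WT mice were close to each other, with a median SD over genes of 0.131 on the log2 CPM scale. The 3 KO mice spread to 0.245, the widest of the 8 groups, so an estimate shared over the groups can understate their spread.

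KO mouse 1 stood apart from the other 5 mice at day 21. On the genes that bleomycin had raised in WT mice at day 14 (1320 genes, 10.4% of those tested), the mean level, as mean log2(CPM + 1), was 3.17, 3.09 and 3.13 in the WT mice and 2.39, 3.26 and 3.05 in the KO mice. Naive WT mice lay at 1.61 to 1.62. On the 358 genes that bleomycin had lowered by day 14 (2.83% of those tested), the level was 3.12, 3.26 and 3.08 in the WT mice and 3.94, 2.98 and 3.14 in the KO mice, against 4.40 to 4.46 in naive WT mice. KO mouse 1 was thus nearer to the naive mice than the other 5 were on both lists, while KO mice 2 and 3 were close to the WT mice. The median log2 fold change of the raised genes was -0.19 with all mice and 0.07 without KO mouse 1. That of the lowered genes was 0.35 with all mice and -0.06 without it. Both medians changed sign, and the medians of the lists below are therefore given with and without that mouse. In bulk RNA, fewer cells of a type and less RNA per cell cannot be told apart.

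**Figure D1:**
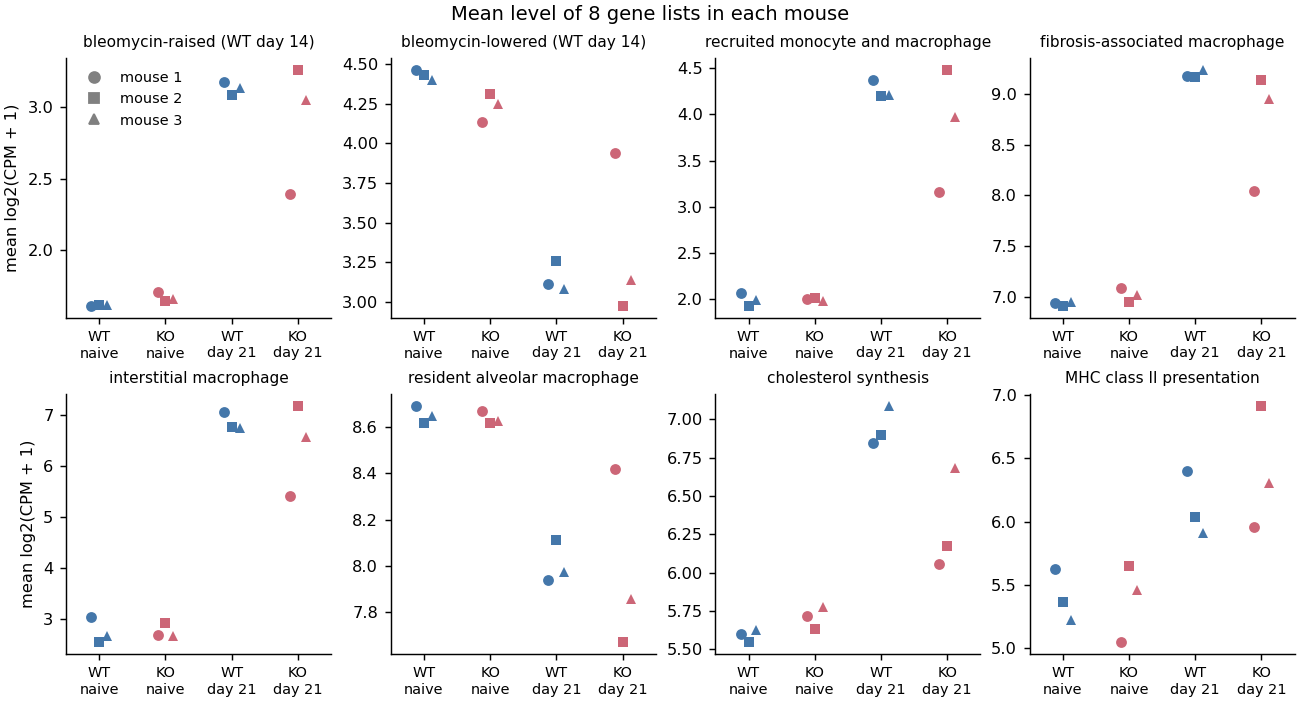
Mean level, as mean log2(CPM + 1), of 8 gene lists (1 panel each, every panel with its own axis, which does not start at 0) in naive mice and in mice at day 21 after bleomycin, with 1 point per mouse and the symbol giving the mouse number, WT in blue and KO in red. KO mouse 1 lies apart from the other day 21 mice in the first 6 panels (2.39 on the bleomycin-raised genes), and on the cholesterol synthesis genes all 3 KO mice lie below the 3 WT mice.

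Siglecf itself (chromosome 7, 43351341 to 43359531 in GRCm38) was 93.6, 122 and 90.9 CPM in the WT mice against 0.108, 0.122 and 0.259 CPM in the KO mice. The sums behind these values were 2830, 3519 and 2631 counts in WT mice and 4, 4 and 10 counts in KO mice, so all 3 libraries labelled KO lacked the transcript almost wholly (log2 fold change -9.24, SE 0.43, adjusted p 1.87e-11). It was called in all 6 fits that left out 1 day 21 mouse.

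Apart from Siglecf, few genes separated the genotypes with the test's threshold. In all, 12 of 12634 genes were called (0.0950%), 5 higher and 7 lower in KO mice. At an unadjusted p under 0.05 there were 1236 genes, or 9.78%, with 4.63% of all genes lower and 5.15% higher in KO mice. The counts given below for lists at that threshold are to be read beside these shares. Of the 12, 5 lie on chromosome 7, Siglecf included, and the 7 others include genes of heme breakdown, the actin cytoskeleton, heparan sulfate and receptor signalling. In the 12 genes the 3 KO mice did not overlap the 3 WT mice. Over all genes tested, the KO mice lay wholly below the WT mice in 8.24% and wholly above in 7.53%.

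**Figure D2:**
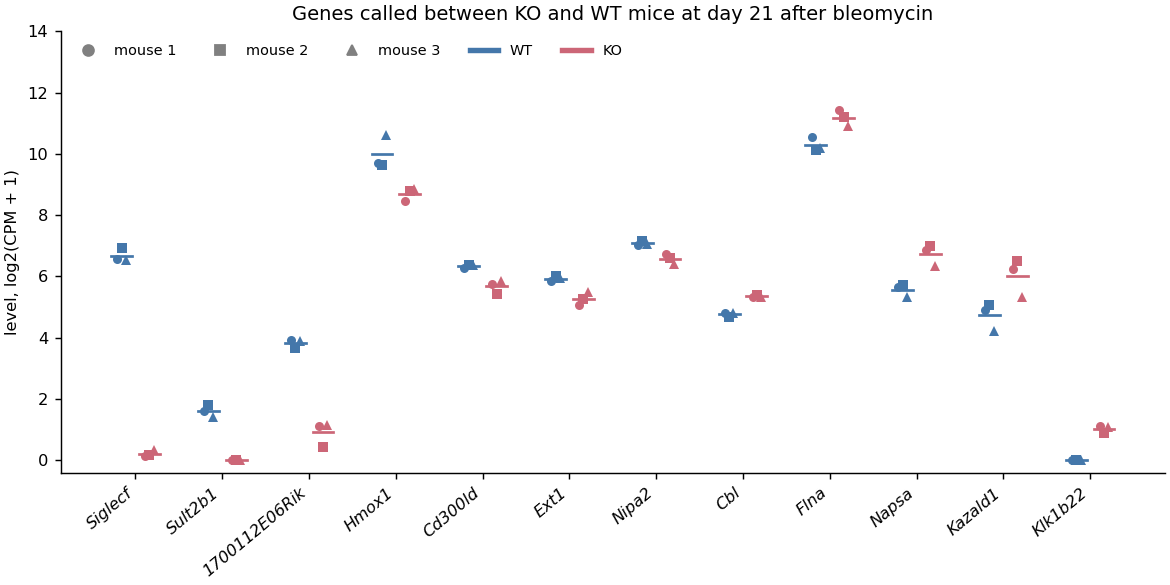
Level as log2(CPM + 1) of the 12 genes called between KO and WT mice at day 21, from the lowest to the highest log2 fold change, with 1 point per mouse (symbol for the mouse number), WT in blue, KO in red and bars at the group means. In each gene the 3 KO mice lie wholly on one side of the 3 WT mice, with Siglecf at 0.108 to 0.259 CPM in KO mice.

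Of the called genes away from chromosome 7, Hmox1 (chromosome 8, 75093621 to 75100589 in GRCm38) encodes heme oxygenase 1, which breaks heme down to iron, carbon monoxide and biliverdin. It measured 833, 801 and 1560.0 CPM in the WT mice against 348, 445.8 and 457 CPM in the KO mice. WT mouse 3 was the highest, the lowest WT mouse still lay above all KO mice, and the fall amounted to log2 fold change -1.35, SE 0.24, adjusted p 0.0205. Naive mice of both genotypes lay between the day 21 groups, at 587 ± 127 CPM in WT and 584 ± 27.0 CPM in KO mice (SD, n = 3 each).

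Cd300ld (chromosome 11, 114982274 to 114989922), an activating receptor of the CD300 family that binds lipids on myeloid cells, was 77.1, 82.4 and 82.6 CPM in the WT mice against 53.3, 42.3 and 56.2 CPM in the KO mice. The WT values lay close together and every KO value was lower (log2 fold change -0.67, SE 0.11, adjusted p 0.0165). Ext1 (chromosome 15, 53064038 to 53346159), one of the enzymes that polymerise the heparan sulfate chain, was 56.2, 63.7 and 60.5 CPM in the WT mice against 32.9, 37.1 and 44.5 CPM in the KO mice. Every KO mouse was below the lowest WT mouse (log2 fold change -0.66, SE 0.13, adjusted p 0.0456). Nipa2 (chromosome 7, 55931287 to 55962476), a magnesium transporter gene 12.6 Mb from Siglecf, was 128, 143 and 133 CPM in the WT mice against 105, 96.5 and 84.3 CPM in the KO mice, a small fall without overlap (log2 fold change -0.50, SE 0.10, adjusted p 0.0456).

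A further transcript with lower values, 1700112E06Rik (chromosome 14, 22019504 to 23056093 in the RefSeq table, where it is listed under Lrmda), falls outside the naming rule and is named because its values were seen. It was 14.2, 11.6 and 14.0 CPM in the WT mice against 1.19, 0.366 and 1.24 CPM in the KO mice (log2 fold change -3.81, SE 0.65, adjusted p 0.0165). The gap was not particular to day 21, since its log2 fold change was -2.09 in naive mice, -2.17 at day 7 and -3.21 at day 14.

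Among the genes that rose, Flna (chromosome X, 74223461 to 74249820) encodes filamin A, which crosslinks actin filaments and tethers integrins to them. It measured 1484, 1124 and 1173 CPM in the WT mice against 2777, 2332 and 1918 CPM in the KO mice. The lowest KO mouse was above the highest WT mouse (log2 fold change 0.89, SE 0.14, adjusted p 0.0165). Naive mice expressed it at 2808 ± 295 CPM in WT and 2761 ± 104 CPM in KO mice (SD, n = 3 each), so that the WT mice at day 21 were below naive mice and the KO mice nearer to them. Cbl (chromosome 9, 44142976 to 44234049), an E3 ubiquitin ligase that ends signalling from tyrosine kinase receptors, was 27.3, 24.5 and 27.2 CPM in the WT mice against 39.7, 40.9 and 39.4 CPM in the KO mice, with both groups tight (log2 fold change 0.60, SE 0.11, adjusted p 0.0388). Kazald1 (chromosome 19, 45075241 to 45079289), a secreted protein of the insulin-like growth factor binding protein family, was 29.0, 32.7 and 17.7 CPM in the WT mice against 75.4, 89.9 and 39.4 CPM in the KO mice. Mouse 3 was the lowest of each genotype, and the groups did not overlap (log2 fold change 1.37, SE 0.26, adjusted p 0.0456).

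These calls rest on few mice and on the spread shared over the 8 groups. With only the day 21 groups fitted, which leaves fewer degrees of freedom, adjusted p by edgeR was 0.335 for Hmox1, 0.315 for Flna and 0.356 for Kazald1. Only Siglecf was called in every fit without 1 day 21 mouse, and it was the sole gene called without WT mouse 3 or without KO mouse 2. Without WT mouse 1 there were 3 calls and without WT mouse 2 also 3. Without KO mouse 1, 18 genes were called, 8 of them among the 12, and without KO mouse 3, 74 were called, 11 of them among the 12. Just outside the threshold were Fcgrt (adjusted p 0.0529), Hk3 (0.0576) and Lss (0.0576), and just inside it Ext1, Kazald1 and Nipa2 (0.0456 each).

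Genes near Siglecf on chromosome 7 were counted by their distance from it. Within 1 Mb of it, 7 of 21 tested genes (33.3%) had an unadjusted p under 0.05, all higher in KO mice, and within 2.5 Mb 23 of 89 did (25.8%), 13 higher and 10 lower. On the rest of the chromosome, beyond 5 Mb, the share was 9.95% of 874 genes. Besides Siglecf, 3 genes within 2.5 Mb were called. Proximity to the targeted locus and the absence of the protein cannot be told apart for these genes, because every KO mouse carries both.

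Klk1b22, a kallikrein protease gene 0.753 Mb away, gave 0 counts in each WT mouse and 43, 28 and 44 counts in the KO mice. Against a floor of 3 counts over the WT group it was at least 31.2-fold higher (adjusted p 0.0165 by the edgeR test). It belongs to a cluster of near-identical kallikrein genes, among which counting can divide reads, and it was at 0 in every WT mouse of the series. Sult2b1, the sulfotransferase that adds sulfate to cholesterol, lies 2.37 Mb away and went the other way. It had 63, 72 and 49 counts in WT mice and 0 in each KO mouse, at least 75.5-fold lower (adjusted p 0.0165 by the same test). Both genes have low counts and fall outside the naming rule, and they are named because they lie near Siglecf.

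Napsa (chromosome 7, 44572380 to 44586862) encodes napsin A, an aspartic protease that processes surfactant protein B in type II epithelial cells, and lies 1.21 Mb away. It was 49.8, 51.4 and 39.0 CPM in the WT mice against 115, 127 and 80.7 CPM in the KO mice. Every KO mouse exceeded the highest WT mouse (log2 fold change 1.20, SE 0.20, adjusted p 0.0165), and in naive mice the log2 fold change was already 0.95 (adjusted p 0.0290 by edgeR). Fcgrt, the neonatal Fc receptor that recycles IgG and albumin, lies 1.73 Mb away and was 191, 226 and 184 CPM in the WT mice against 592, 309 and 364 CPM in the KO mice. KO mice were higher without overlap, KO mouse 1 the most, but the gene was not called at day 21 (log2 fold change 1.07, SE 0.21, adjusted p 0.0529). Its log2 fold change at day 14 was 1.08 (adjusted p 0.0459). Trpm4, a calcium-activated cation channel 1.94 Mb away, was 11.2, 10.0 and 13.0 CPM in the WT mice against 15.9, 32.5 and 17.7 CPM in the KO mice (log2 fold change 0.95, SE 0.20, adjusted p 0.0641) and was called in naive mice (0.92, adjusted p 0.0417).

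**Figure D3:**
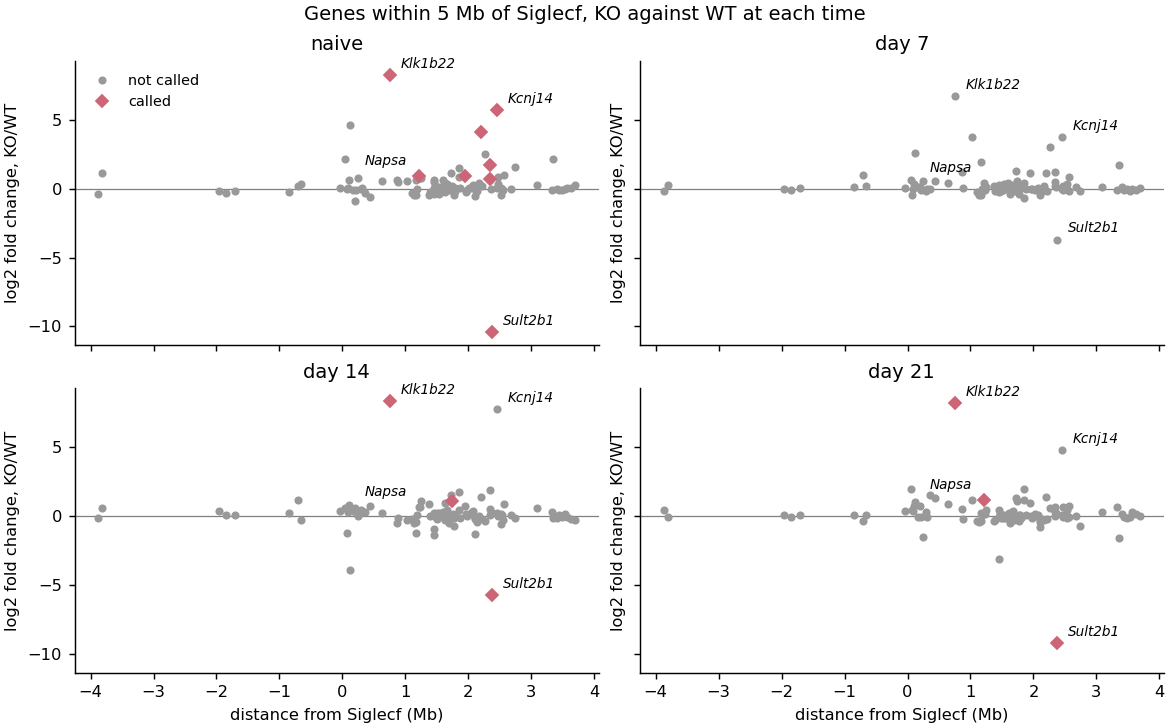
Log2 fold change of KO over WT against the distance from Siglecf in Mb for the genes tested within 5 Mb (Siglecf itself not drawn), in naive mice and at days 7, 14 and 21 after bleomycin, with called genes as red diamonds. Klk1b22 is high and Sult2b1 low at all 4 times, and both are called at day 21.

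Of the lists described here, cholesterol synthesis had the largest share of genes at an unadjusted p under 0.05. Macrophages make cholesterol from acetyl-CoA through the mevalonate pathway, and the transcription factor SREBP-2 (Srebf2) drives its genes when the sterol content of the endoplasmic reticulum is low. Of 25 tested genes of this list, 24 had a log2 fold change below 0, against 48.0% of all genes. The same 24 had an unadjusted p under 0.05, where 4.63% of all genes did in that direction. In 20 of the 25 all 3 KO mice were below all 3 WT mice, against 8.24% of all genes. None was called by the edgeR test after adjustment over all genes, whereas DESeq2 called 15 and limma-voom 5, all lower. The median log2 fold change was -0.62, beside 0.01 over all genes, and -0.58 without KO mouse 1.

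The sequences just upstream of 4 of these genes are shown because the list moved together. They are the 250 bases before the RefSeq start in GRCm38.p6 (5′ to 3′ on the gene's strand), with capitals marking CCAAT on either strand and the sterol element TCACNCCAC on either strand, which did not overlap each other. Hmgcs1 is at chr13:119690101-119690350 (+), Idi1 at chr13:8885356-8885605 (+), Lss at chr10:76531355-76531604 (+) and Sc5d at chr9:42264301-42264550 (-).
Hmgcs1: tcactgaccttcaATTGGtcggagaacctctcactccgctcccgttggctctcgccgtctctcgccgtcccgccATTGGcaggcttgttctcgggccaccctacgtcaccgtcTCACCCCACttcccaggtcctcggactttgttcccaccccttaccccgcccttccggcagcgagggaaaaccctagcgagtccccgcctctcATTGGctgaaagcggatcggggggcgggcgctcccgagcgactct
Idi1: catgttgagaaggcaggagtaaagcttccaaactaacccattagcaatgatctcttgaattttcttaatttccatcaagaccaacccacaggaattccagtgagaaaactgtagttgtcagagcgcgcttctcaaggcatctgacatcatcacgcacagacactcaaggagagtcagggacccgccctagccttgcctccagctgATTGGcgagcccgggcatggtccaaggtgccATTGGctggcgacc
Lss: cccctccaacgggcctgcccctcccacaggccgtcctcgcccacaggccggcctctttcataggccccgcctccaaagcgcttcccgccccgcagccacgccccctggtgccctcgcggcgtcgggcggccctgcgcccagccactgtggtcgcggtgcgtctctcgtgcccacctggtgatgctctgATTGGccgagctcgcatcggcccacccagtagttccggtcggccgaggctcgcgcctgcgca
Sc5d: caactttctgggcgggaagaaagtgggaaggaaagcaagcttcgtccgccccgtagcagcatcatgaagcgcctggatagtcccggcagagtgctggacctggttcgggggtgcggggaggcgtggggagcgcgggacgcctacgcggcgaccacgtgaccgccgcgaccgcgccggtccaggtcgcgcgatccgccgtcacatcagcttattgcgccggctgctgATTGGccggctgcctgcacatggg
Of the 25 tested and 1 further listed gene, 18 had an entry in the promoter table. CCAAT was in 15 of these 18 windows (83.3%) and in 34.5% of the first listed windows of 27025 genes. TCACNCCAC was in 1 of the 18 (5.56%, that of Hmgcs1) and in 1.04% of the 27025. These are matches of letters and not binding sites. The 27025 genes were not limited to the 12634 tested here, so the sets compared are not alike in expression.

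Along the pathway, Hmgcs1 makes HMG-CoA at its entry and was 296, 308 and 362 CPM in the WT mice against 157, 165 and 266 CPM in the KO mice (log2 fold change -0.72, SE 0.16, adjusted p 0.0878). KO mice 1 and 2 were well under the WT mice and KO mouse 3 just under the lowest WT mouse. Hmgcs1, Sqle, Srebf2 and Insig1 are outside the naming rule and were named for their place in the pathway after their values had been seen. Idi1, which isomerises isopentenyl diphosphate, was 224, 251 and 289 CPM in the WT mice against 103, 107 and 185 CPM in the KO mice (log2 fold change -0.95, SE 0.20, adjusted p 0.0641). Fdps, which builds farnesyl diphosphate, was 175, 182 and 233 CPM in the WT mice against 73.9, 85.5 and 133 CPM in the KO mice (log2 fold change -1.01, SE 0.21, adjusted p 0.0586). KO mice 1 and 2 were again the lowest.

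On the sterol side, Sqle, the squalene epoxidase, was 171, 189 and 221 CPM in the WT mice against 81.0, 102 and 147 CPM in the KO mice (log2 fold change -0.82, SE 0.18, adjusted p 0.0747). Lss, the lanosterol synthase, was 66.5, 62.5 and 80.6 CPM in the WT mice against 31.9, 35.9 and 49.4 CPM in the KO mice (log2 fold change -0.84, SE 0.17, adjusted p 0.0576). Sc5d, a late desaturase, was 73.7, 77.9 and 91.0 CPM in the WT mice against 35.1, 36.8 and 62.5 CPM in the KO mice (log2 fold change -0.85, SE 0.17, adjusted p 0.0586). All 3 genes had every KO mouse below every WT mouse. Of the regulators, Insig1 had log2 ratios to the mean of the WT mice of -0.694, -0.795 and -0.392 in the KO mice, while Srebf2 and Scap moved less. Srebf2 was 242, 254 and 265 CPM in the WT mice against 184, 183 and 241 CPM in the KO mice, with KO mouse 3 just below the lowest WT mouse (log2 fold change -0.33, SE 0.10, adjusted p 0.243). Scap, which escorts SREBP-2 out of the endoplasmic reticulum, was the exception of the list, at 84.7, 83.7 and 82.9 CPM in the WT mice against 111, 94.1 and 87.3 CPM in the KO mice (log2 fold change 0.22, SE 0.09, adjusted p 0.437).

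KO mouse 3 was the highest of the KO mice in 24 of the 25 genes. The median log2 ratio to the mean of the WT mice was -0.94 in KO mouse 1, -0.82 in KO mouse 2 and -0.27 in KO mouse 3. The WT mice ranged from -0.11 to 0.17. Without KO mouse 3, edgeR called 17 of the 25 genes, all lower (74 genes of all tested), and the list's median was -0.87. The pattern was thus carried most by the 2 other KO mice, of which only KO mouse 1 stood apart on the injury genes.

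**Figure D4:**
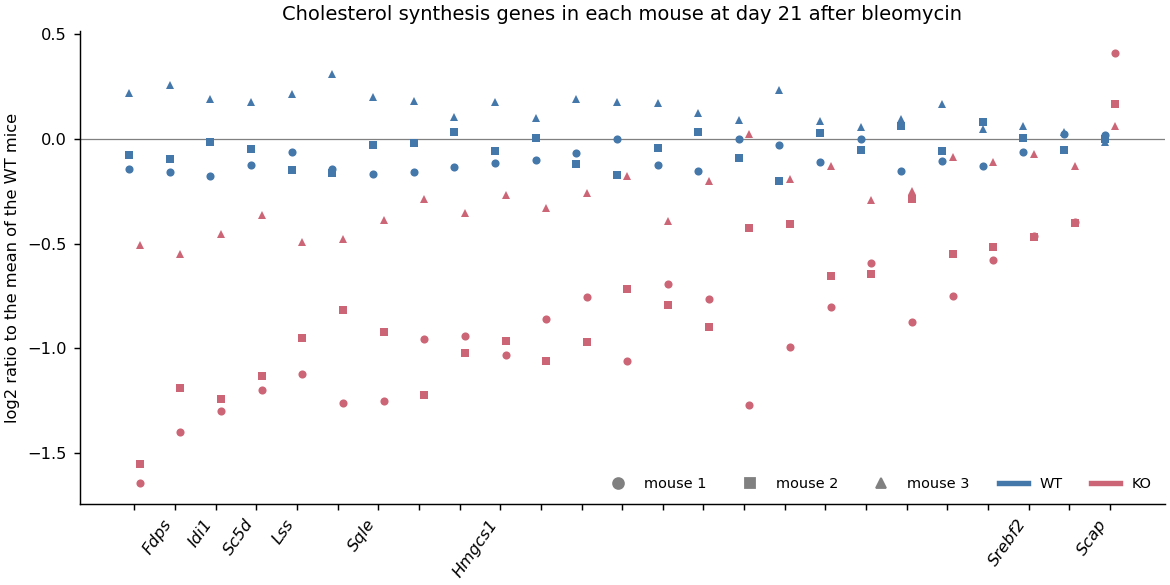
Log2 ratio of each mouse to the mean of the 3 WT mice for the 25 cholesterol synthesis genes tested at day 21, genes ordered by the mean of the KO mice and those described in the text, other than Insig1, named on the axis, with WT in blue, KO in red and the symbol giving the mouse number. KO mice 1 and 2 lie below the WT mice in 24 genes, KO mouse 3 lies closer to them (median -0.27), and Scap is higher in the KO mice.

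The mean level of the list, as mean log2(CPM + 1), was 6.85, 6.90 and 7.09 in WT mice and 6.06, 6.17 and 6.68 in KO mice. Naive mice of both genotypes were lower than all 6, at 5.55 to 5.77, so every day 21 mouse was above the naive level, and the KO mice less so. The list median of the KO difference was 0.13 in naive mice, -0.26 at day 7 and 0.26 at day 14. Lss was the single gene of the list for which the day 21 difference was called apart from that of naive mice (difference of the log2 fold changes -1.13, SE 0.24, adjusted p 0.0469 by edgeR). Genes of cholesterol efflux under LXR control did not follow: of 21 tested, 2 were lower and 1 higher at an unadjusted p under 0.05, with a median of -0.05 (-0.03 without KO mouse 1). Fabp5, a fatty acid binding protein, was 929.8, 1118 and 1205 CPM in the WT mice against 367, 559 and 682 CPM in the KO mice (log2 fold change -1.02, SE 0.23, adjusted p 0.0912), all KO mice below all WT mice, and was called without KO mouse 3 (adjusted p 0.0275).

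No gene of the list of fibrosis-associated macrophage genes was called. In 7 of its 24 genes all 3 KO mice were below all 3 WT mice, against 8.24% of all genes. In 2 all 3 KO mice were above, against 7.53% of all genes. The list had a median log2 fold change of -0.40 over its 24 genes, 5 of them lower and 0 higher at an unadjusted p under 0.05, and -0.14 without KO mouse 1. Its mean level, as mean log2(CPM + 1), was 9.18, 9.17 and 9.24 in WT mice and 8.04, 9.14 and 8.96 in KO mice, against 6.91 to 7.08 in the naive mice of both genotypes. KO mice 2 and 3 were just under the WT range of this list, and KO mouse 1 was far under it, between the WT and the naive mice.

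Spp1, the secreted matrix protein osteopontin, showed this split. It was 15474, 15919 and 17922 CPM in the WT mice against 2994, 14931 and 16594 CPM in the KO mice (log2 fold change -0.51, SE 0.45, adjusted p 0.787). KO mice 2 and 3 were inside or just under the WT range and only KO mouse 1 was low. Fn1, fibronectin, was 7545, 5888 and 6247 CPM in the WT mice against 4780.4, 13264 and 11630.0 CPM in the KO mice (log2 fold change 0.59, SE 0.34, adjusted p 0.606), with KO mice 2 and 3 above every WT mouse and KO mouse 1 below. Arg1, which turns arginine into ornithine, spread even more, at 241, 208 and 316 CPM in the WT mice against 9.80, 499 and 195 CPM in the KO mice (log2 fold change -0.12, SE 0.71, adjusted p 0.982).

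Gpnmb, a transmembrane glycoprotein of lipid-laden macrophages, was lower in all 3 KO mice, at 1647, 1876 and 1962 CPM in the WT mice against 772, 1529 and 1133 CPM in the KO mice (log2 fold change -0.68, SE 0.19, adjusted p 0.162). Mfge8, which bridges phosphatidylserine on dying cells to integrins on the phagocyte, was 1111, 1030.3 and 1008 CPM in the WT mice against 230.0, 457 and 712 CPM in the KO mice (log2 fold change -1.17, SE 0.31, adjusted p 0.147). Both lay below the WT range in every KO mouse without being called. The lipid and debris receptor Trem2 was 306, 265 and 299 CPM in the WT mice against 139.8, 256 and 253 CPM in the KO mice (log2 fold change -0.42, SE 0.23, adjusted p 0.572), and the elastase Mmp12 was 354, 284 and 273 CPM in the WT mice against 213, 109 and 227 CPM in the KO mice (log2 fold change -0.73, SE 0.41, adjusted p 0.604). Trem2 and Mmp12 too lay below the WT range in every KO mouse, Trem2 by little in KO mice 2 and 3. For Mmp12 it was KO mouse 2, not mouse 1, that was lowest.

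Of the growth factors that macrophages send to fibroblasts, Pdgfb, the ligand of the platelet-derived growth factor receptor, was 20.4, 25.04 and 19.5 CPM in the WT mice against 9.15, 11.2 and 15.9 CPM in the KO mice (log2 fold change -0.84, SE 0.39, adjusted p 0.493), below the WT range in every KO mouse. Tgfb1 was 557, 557 and 557 CPM in the WT mice against 616, 596 and 572 CPM in the KO mice (log2 fold change 0.09, SE 0.07, adjusted p 0.745), each KO mouse just above the 3 nearly equal WT mice. Igf1, insulin-like growth factor 1, was 247, 192 and 274 CPM in the WT mice against 77.1, 261 and 229.6 CPM in the KO mice, with only KO mouse 1 low. Tgfb2 had the smallest p among these ligands and was higher in KO mice, at 3.93, 2.39 and 1.31 CPM in the WT mice against 11.7, 5.62 and 6.16 CPM in the KO mice (log2 fold change 1.62, SE 0.45, adjusted p 0.176). Of the 24 genes in this group, 5 were lower and 2 higher at an unadjusted p under 0.05, none was called, and the median was -0.10 (-0.15 without KO mouse 1, and 0.04 without WT mouse 3). Metalloproteinases and their inhibitors had 4 of 18 lower, with a median of -0.29 that became 0.01 without KO mouse 1. Mmp19 was 801, 983 and 749 CPM in the WT mice against 468, 454.1 and 669.8 CPM in the KO mice (log2 fold change -0.67, SE 0.19, adjusted p 0.182), lower in all KO mice. Extracellular matrix genes had 2 lower and 1 higher of 22, with a median of -0.07 (-0.01 without KO mouse 1). Over all genes 4.63% were lower and 5.15% higher at that threshold.

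Markers of recruited monocytes and macrophages and of interstitial macrophages followed KO mouse 1. The recruited list of 24 genes had a median of -0.35 with all mice and 0.08 without KO mouse 1, and the interstitial list of 13 genes -0.34 and 0.07. No gene of either was called. C1qa, a subunit of the first complement component, was 725, 669 and 595 CPM in the WT mice against 139.7, 776 and 464 CPM in the KO mice (log2 fold change -0.53, SE 0.49, adjusted p 0.806). KO mice 2 and 3 were on either side of the WT mice, and KO mouse 1 was lowest. Ccr2, the monocyte chemokine receptor, was 85.6, 52.4 and 56.7 CPM in the WT mice against 32.1, 91.9 and 64.5 CPM in the KO mice. Cx3cr1, the fractalkine receptor, was in contrast lower in all 3 KO mice, at 38.7, 27.9 and 25.2 CPM in the WT mice against 15.5, 8.46 and 23.6 CPM in the KO mice (log2 fold change -0.95, SE 0.42, adjusted p 0.469), and so was the scavenger receptor Stab1, at 47.8, 27.3 and 47.8 CPM in the WT mice against 4.93, 24.1 and 16.9 CPM in the KO mice (log2 fold change -1.42, SE 0.48, adjusted p 0.291).

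The labels name macrophages from BAL and do not say whether these were resident or recruited. All 29 listed markers of resident alveolar macrophages passed the filter, which was applied to the whole series, not to day 21 alone. None was called, 3 were lower and 4 higher at an unadjusted p under 0.05, and the median was 0.15, or -0.02 without KO mouse 1. The mean level, as mean log2(CPM + 1), was 7.94, 8.11 and 7.97 in WT mice and 8.42, 7.67 and 7.86 in KO mice, with naive mice of both genotypes at 8.62 to 8.69. KO mouse 1 was nearest to the naive mice and KO mice 2 and 3 were below the WT range. Chil3, a chitinase-like protein of alveolar macrophages, was 10017, 10559 and 12859 CPM in the WT mice against 15635, 14357 and 7953 CPM in the KO mice. Pparg, the nuclear receptor that sets the alveolar macrophage programme, was 125, 119 and 102 CPM in the WT mice against 182, 117 and 144 CPM in the KO mice (log2 fold change 0.36, SE 0.19, adjusted p 0.561). The scavenger receptor Marco was 473.4, 335 and 801 CPM in the WT mice against 282, 652 and 286 CPM in the KO mice. None of these 3 genes separated the genotypes. Itgax, the integrin CD11c, did not overlap and was higher in KO mice, at 1623, 1430.3 and 1323 CPM in the WT mice against 2075, 1731 and 1843 CPM in the KO mice (log2 fold change 0.37, SE 0.11, adjusted p 0.206). Slc7a2 of the same list was also higher (log2 fold change 0.36, adjusted p 0.159 by edgeR). Fabp5 and Fabp4 of that list were lower (log2 fold changes -1.02 and -0.70, adjusted p 0.0912 and 0.293 by edgeR). For Fabp5 every KO mouse was below every WT mouse.

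Other receptors of the Siglec and CD300 families, which pair inhibitory with activating members, did not move as a whole. Of 27 tested, Siglecf itself not among them, Cd300ld was the only one called, 5 were lower and 2 higher at an unadjusted p under 0.05, and the median was -0.01 (-0.14 without KO mouse 1). The 4 genes with the smallest p were all of the CD300 family, 3 lower and 1 higher. Cd300lb, an activating member, was 76.6, 77.7 and 78.1 CPM in the WT mice against 48.7, 28.9 and 52.0 CPM in the KO mice (log2 fold change -0.84, SE 0.18, adjusted p 0.0641). Cd300a, an inhibitory receptor for phosphatidylserine, was 133, 139 and 138 CPM in the WT mice against 74.4, 97.3 and 98.1 CPM in the KO mice (log2 fold change -0.60, SE 0.15, adjusted p 0.116). Both had every KO mouse below every WT mouse, while Cd300lg was higher, at 10.5, 5.99 and 6.39 CPM in the WT mice against 14.7, 24.6 and 12.3 CPM in the KO mice (log2 fold change 1.17, SE 0.30, adjusted p 0.127).

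Fc gamma receptors, which bind antibody-coated particles, had 6 of 21 genes of the receptor and signalling list lower and 0 higher at an unadjusted p under 0.05, with a median of -0.15 that was -0.05 without KO mouse 1. Fcgr3, an activating receptor, was 731, 818 and 767 CPM in the WT mice against 588, 531 and 586 CPM in the KO mice (log2 fold change -0.44, SE 0.11, adjusted p 0.12). Fcgr4, another, was 155, 228 and 215 CPM in the WT mice against 129, 112 and 125 CPM in the KO mice (log2 fold change -0.71, SE 0.18, adjusted p 0.125). Neither overlapped, and KO mouse 1 was not the lowest in either. The inhibitory Fcgr2b overlapped, at 259, 278 and 267 CPM in the WT mice against 119, 344 and 226 CPM in the KO mice. Clec4d, a lectin receptor for mycobacterial glycolipid, was 82.0, 114 and 104 CPM in the WT mice against 43.8, 40.2 and 45.2 CPM in the KO mice (log2 fold change -1.22, SE 0.25, adjusted p 0.0641). Lrp1, a large receptor for many ligands including protease complexes and apoptotic cells, was 1489, 1473 and 1497 CPM in the WT mice against 2816, 2716 and 3177 CPM in the KO mice (log2 fold change 0.97, SE 0.23, adjusted p 0.107). All KO mice were above all WT mice, and naive mice were at the WT level, 1506 ± 499 CPM in WT and 1533 ± 58.0 CPM in KO mice (SD, n = 3 each). With only the day 21 mice in the fit, edgeR called 3 genes, Siglecf, Lrp1 (adjusted p 0.0488) and Amd1.

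The list of NRF2 targets and iron handling, to which Hmox1 belongs, had 8 of 25 genes lower and 0 higher at an unadjusted p under 0.05, with a median of -0.31, or -0.21 without KO mouse 1. The ferritin heavy chain gene Fth1, which stores iron, was 20196, 21352 and 24623 CPM in the WT mice against 12111, 15706 and 16055 CPM in the KO mice (log2 fold change -0.59, SE 0.16, adjusted p 0.147). Glutathione reductase, Gsr, was 446.1, 473.7 and 574 CPM in the WT mice against 354, 380.1 and 372 CPM in the KO mice (log2 fold change -0.43, SE 0.12, adjusted p 0.159). The cystine transporter Slc7a11 was 57.8, 56.8 and 106 CPM in the WT mice against 47.8, 54.0 and 40.4 CPM in the KO mice (log2 fold change -0.63, SE 0.23, adjusted p 0.33). In these 3 genes WT mouse 3 was the highest, as in Hmox1, and no KO mouse reached the WT range.

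Lysosomal genes were lower by small amounts, with a median of -0.16 (-0.07 without KO mouse 1). At an unadjusted p under 0.05, 13 of 37 were lower and 1 higher, against 4.63% and 5.15% of all genes. In 15 of 37 all KO mice were below all WT mice, against 8.24% of all genes. Ctsz, a lysosomal cysteine protease, was 1835, 1703 and 1918 CPM in the WT mice against 1166, 1173 and 1546 CPM in the KO mice (log2 fold change -0.49, SE 0.12, adjusted p 0.116). Hexa, a subunit of beta-hexosaminidase, was 1106, 1142 and 1150.1 CPM in the WT mice against 879, 711 and 991 CPM in the KO mice (log2 fold change -0.40, SE 0.10, adjusted p 0.126). Neu1, the lysosomal sialidase, was 204, 211 and 225 CPM in the WT mice against 172, 156 and 203 CPM in the KO mice (log2 fold change -0.27, SE 0.08, adjusted p 0.212). None of the list was called with all mice, and 4 were called without KO mouse 3, all lower.

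Genes of the unfolded protein response had 12 of 28 lower and 1 higher, with a median of -0.24 and -0.27 without KO mouse 1. The oxidoreductase Pdia6 was 328, 337 and 372 CPM in the WT mice against 311, 205 and 263 CPM in the KO mice (log2 fold change -0.42, SE 0.13, adjusted p 0.23). The stress-induced factor Atf3 was 48.6, 63.9 and 74.3 CPM in the WT mice against 29.1, 27.3 and 42.0 CPM in the KO mice (log2 fold change -0.92, SE 0.31, adjusted p 0.283), and Herpud1 was the member that was higher, at 49.3, 52.4 and 35.9 CPM in the WT mice against 115, 58.2 and 57.2 CPM in the KO mice (log2 fold change 0.75, SE 0.26, adjusted p 0.302). Of 30 genes of glycolysis and hypoxia, 6 were lower and 1 higher, with a median of -0.12 (-0.02 without KO mouse 1). Hk3, a hexokinase of myeloid cells, was 69.0, 65.8 and 77.4 CPM in the WT mice against 50.0, 48.1 and 49.3 CPM in the KO mice (log2 fold change -0.53, SE 0.11, adjusted p 0.0576). Oxidative phosphorylation (38 genes, median 0.01, or 0.06 without KO mouse 1) and ribosomal protein genes (40 genes, median 0.09, or 0.01 without it) had 0 genes at an unadjusted p under 0.05 in either direction. The same test over all genes gave 4.63% lower and 5.15% higher.

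CC chemokines and their receptors had 5 of 16 lower and 0 higher at an unadjusted p under 0.05, with a median of -0.53, and -0.52 without KO mouse 1. Ccl9 was 313, 344 and 340.1 CPM in the WT mice against 108, 158 and 152 CPM in the KO mice (log2 fold change -1.25, SE 0.32, adjusted p 0.132). Ccl6 was 5151, 6060.3 and 5864 CPM in the WT mice against 4509, 4073 and 4136 CPM in the KO mice (log2 fold change -0.42, SE 0.14, adjusted p 0.243). Both are chemokines of mouse myeloid cells, and in both the lowest WT mouse was above all KO mice. In the CXC group, with 2 of 12 lower and 1 higher and a median of -0.42 (-0.49 without KO mouse 1), the receptor gene Cxcr2 was 27.3, 33.9 and 44.5 CPM in the WT mice against 22.2, 2.32 and 14.0 CPM in the KO mice (log2 fold change -1.45, SE 0.44, adjusted p 0.215). Retnla, a product of alternatively activated macrophages, was uneven among the WT mice, with 295, 6 and 501 counts there and 0, 2 and 3 in KO mice (adjusted p 0.0641 by edgeR, 0.588 by limma-voom). WT mouse 2 was near the KO mice.

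Presentation genes of MHC class II had 3 of 16 higher and 0 lower, with a median of 0.48 and no call. The median was 0.55 without KO mouse 1, but 0.06 without KO mouse 2 and 0.18 without WT mouse 3. As a median log2 ratio to the mean of the WT mice, KO mouse 2 stood at 0.92, whereas KO mice 1 and 3 were at -0.12 and -0.01. H2-DMa, a subunit of the peptide exchanger, was 286, 229 and 189.9 CPM in the WT mice against 387, 396 and 294 CPM in the KO mice (log2 fold change 0.61, SE 0.15, adjusted p 0.119), above the WT range in each KO mouse. H2-Aa, a chain of the presenting molecule, was 1089, 623 and 544 CPM in the WT mice against 735, 2278 and 1207 CPM in the KO mice (log2 fold change 0.90, SE 0.48, adjusted p 0.564), highest in KO mouse 2 and inside the WT range in KO mouse 1. Interferon response genes had 3 of 40 lower and 0 higher, against 4.63% lower and 5.15% higher over all genes. Their median of -0.26 was -0.09 without KO mouse 1. Cell cycle genes (40 tested, 2 lower and 3 higher, median 0.02, or 0.07 without KO mouse 1) gave no difference in one direction.

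Markers of other cells that lavage can hold moved with some of these results. Summed CPM of the listed neutrophil markers was 394 to 459 in WT mice and 280 to 358 in KO mice, mostly Wfdc21 and Mmp8, with Camp, Mpo and Elane at 0 in all 6 mice. Cxcr2 is on that list, and the part of neutrophils in its values was not tested. Erythroid and platelet markers summed to 103 to 356 CPM in WT mice and 16.2 to 67.6 in KO mice, mostly Hba-a1, with Gp9 and Gp1ba at 0. WT mouse 3 had the most of this signal and the most Hmox1, and the part of red cells in the Hmox1 result was not tested. All 8 tested markers of that list had a log2 fold change below 0 and none was called.

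Alveolar epithelial markers summed to 340 to 344 CPM in WT mice and 413 to 458 in KO mice. The sum was mostly Abca3, Cdh1 and Napsa, the last of them called above. The surfactant gene Sftpc was 10.5, 4.74 and 7.63 CPM in WT mice and 0.406, 3.54 and 11.6 CPM in KO mice. Sftpb was 4.1, 4.71 and 5.87 CPM in WT mice and 0.352, 1.1 and 6.31 CPM in KO mice. Both lay below the WT range in KO mice 1 and 2 and above it in KO mouse 3. Of the 22 epithelial genes, 3 were higher and 0 lower at an unadjusted p under 0.05, and the median was -0.23. Without KO mouse 1 that median was -0.02, and without KO mouse 3 it was -1.23. T and NK cell markers were uneven among the KO mice. As a median log2 ratio to the mean of the WT mice over 24 genes, they were lowest in KO mouse 1 (-1.25) and highest in KO mouse 2 (1.54), with KO mouse 3 at -0.13. Cd3e, a chain of the T cell receptor complex, was 4.60, 3.43 and 3.01 CPM in WT mice and 1.16, 11.9 and 3.41 CPM in KO mice. The summed CPM of that list, 196 to 231 in WT and 145 to 348 in KO mice, was mostly Cd2, which ran the other way at 322, 44.6 and 97.6 CPM in the KO mice. Dendritic cell markers summed to 951 to 985 CPM in WT and 752 to 927 in KO mice, mostly Cst3, which macrophages also express.

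Eosinophils also carry Siglec-F. Their 12 listed markers summed to 609 to 647 CPM in WT mice and 621 to 756 in KO mice, but nearly all of this was Adgre1 (469 to 498 CPM in WT and 421 to 522 in KO mice) and Itga4 (121 to 147 and 171 to 214), which macrophages express too. Ear6, also on the list, was 5.06, 4.61 and 5.11 CPM in WT mice and 0.785, 18.5 and 3.03 CPM in KO mice, highest in KO mouse 2. The granule protein genes Prg2, Epx and Prg3 were at few counts or none. Prg2 had 44, 0 and 13 counts in WT mice and 0, 1 and 0 in KO mice, Epx had 7, 0 and 8 against 0 in each KO mouse, and Prg3 was at 0 in all 6. Over the 6 markers that were tested the median log2 fold change was -0.73 (-0.46 without KO mouse 1), and WT mouse 2 was as low as the KO mice in Prg2 and Epx. The fibroblast sum of 364 to 496 CPM in WT and 338 to 597 in KO mice was almost wholly Gsn (361 to 491 and 337 to 595 CPM), which macrophages also express, while Col3a1, Lum and 4 others were at 0.

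Fold changes also depended on gene length. Genes with a length (12125) were put in order of summed exon length and divided into 10 equal bins. In the bin of the longest genes the median log2 fold change was 0.15, with 161 genes higher and 26 lower at an unadjusted p under 0.05. In the bin of the shortest it was -0.05, with 26 higher and 61 lower. Each KO mouse showed the trend in the longest bin (0.10, 0.11 and 0.18 above the WT mean). The WT mice ran from -0.000183 to 0.00322 there, but each is part of that mean, which draws their values towards it. At day 7 the longest bin had a median of 0.07, at day 14 of 0.04 and in naive mice of 0.01. Flna, Cbl and Lrp1, all higher in KO mice, have summed exons of 9400, 12345 and 17717 bases. With each library's length trend removed, an alternative added after the data had been seen, 16 genes were called, 10 of them among the 12. Flna kept its call (0.81, adjusted p 0.0238), and Cbl did not (0.47, adjusted p 0.0651). Lrp1 was at 0.74 (adjusted p 0.0651). Lss and Fcgrt were called in that fit (adjusted p 0.0247 each), and the cholesterol synthesis median was -0.58. The part of RNA quality in the trend was not tested.

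**Figure D5:**
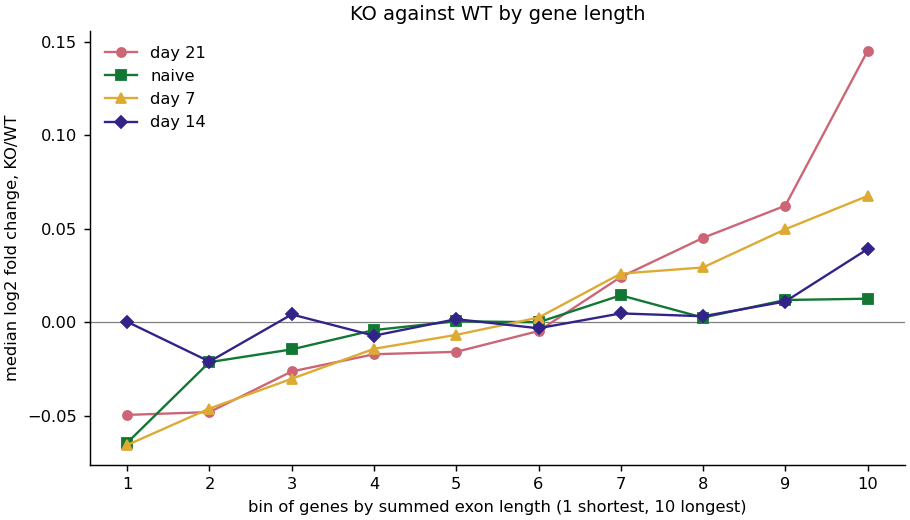
Median log2 fold change of KO over WT in 10 equal bins of the 12125 genes with a length, from the shortest to the longest summed exons, in naive mice and at days 7, 14 and 21 after bleomycin. The day 21 line climbs from -0.05 in the shortest bin to 0.15 in the longest, above the lines of the other 3 times at that end.

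Whether the genotype difference at day 21 departs from that at other times was tested as a difference of differences in the same edgeR fit. Against naive mice, 42 genes were called (0.332%), 28 with a higher and 14 with a lower KO effect at day 21. In 41 of the 42 the log2 fold changes at the 2 times had opposite signs, in 31 the naive one was the larger, and only Cd300ld, Flna and Kazald1 were themselves called at day 21, whereas 24 were called in naive mice. Choosing genes by a difference favours opposite signs, so the count of signs is not a separate result. Within each time, 69 genes were called between the genotypes in naive mice (0.546%), 1 at day 7 (0.00792%) and 17 at day 14 (0.135%). Against day 7 and against day 14, 0 genes were called (0%), with 615 and 639 at an unadjusted p under 0.05. DESeq2 called 6 and 21, and limma-voom 0 and 0.

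Among the 42, Bcl6, a transcriptional repressor set against STAT5, was 18.0, 23.3 and 26.5 CPM in the WT mice against 14.0, 7.36 and 15.2 CPM in the KO mice at day 21 (log2 fold change -0.89, SE 0.21, adjusted p 0.107) and was higher in naive KO than naive WT mice, at 7.69 ± 1.08 CPM in WT and 14.9 ± 1.68 CPM in KO mice (SD, n = 3 each) (log2 fold change 0.95). Cish, a feedback inhibitor that STAT5 induces, did the reverse. It was 13.8, 14.1 and 8.43 CPM in the WT mice against 29.3, 23.1 and 18.9 CPM in the KO mice at day 21 (log2 fold change 0.97, SE 0.31, adjusted p 0.243) and 46.6 ± 19.3 CPM in WT and 21.2 ± 7.46 CPM in KO mice (SD, n = 3 each) in naive mice (log2 fold change -1.13). The difference of differences was -1.84 for Bcl6 (SE 0.30, adjusted p 0.0105) and 2.11 for Cish (SE 0.44, adjusted p 0.0461). That of Bcl6 was called in 11 of 12 fits without 1 mouse and that of Cish in 3 of 12.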

How the data were processed

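RNA from airspace macrophages of 24 mice (8 groups of 3) had been sequenced from mRNA libraries. The authors deposited expected counts per gene, of which 3.36% to 3.60% of the day 21 values were not whole. These were rounded to whole numbers. Per the submitters' processing notes, the tools included bcl2fastq, DESeq2 1.42.0 and limma 3.58.1 and the build was mm10. No label or header names the aligner, the counter or its use of strand. The labels list 2 runs per mouse and the table has 1 column per mouse. A further 24 columns of other samples were not used.

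Genes were filtered with edgeR's filterByExpr (minimum count 10, minimum total 15), scaled by TMM and fitted with 1 mean per group over all 24 mice (edgeR 4.0.16 in R 4.3.3, quasi-likelihood test, 16 residual degrees of freedom, Benjamini-Hochberg adjustment over all tested genes, threshold 0.05). For a single value, an exact permutation test of 3 against 3 mice cannot go below p = 0.1. Lists were described by counts and medians, with no set test. The scripts were tested on simulated data. Lengths and positions came from GENCODE M21 or RefSeq by symbol (12596 and 12125 genes had a position and a length), and upstream sequences from RefSeq. The genes named were the called genes with at least 5 CPM in the higher group and no overlap (up to 12 per direction), up to 4 per list by smallest p, 30 genes of a panel and, for differences between times, 6 per direction. Others are marked. The comparison, lists and panel were chosen with earlier results of these data known. Alternatives were DESeq2, limma-voom, RLE scaling, no filter, the contrast's groups alone, mouse number as a block, leaving out each mouse, bleomycin genes taken from day 7 and, added later, removal of a length trend.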

Additional observations from a re-analysis of the deposited data

Results flagged for a closer look

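The KO effect at day 21 differed from that in naive mice by the edgeR test of the difference of differences (KO minus WT at day 21, minus the same in naive mice) for 42 genes. The largest in the higher direction, on the log2 scale, were 2.89 for Rsrp1, a nuclear arginine and serine-rich protein, 2.11 for Cish, 1.84 for Ccdc117, 1.82 for Egfem1, 1.81 for the transcription factor Klf9 and 1.71 for Kazald1. In the lower direction they were -1.84 for Bcl6, -1.48 for the transcription factor Bhlhe41, -1.33 for Cd300lb, -1.24 for Fhl3, -1.19 for Plekho2 and -1.13 for Lss.

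For Rsrp1 the naive mice held most of the difference, with a log2 fold change of -2.58 there (adjusted p 0.0110 by edgeR) and 0.31 at day 21 (adjusted p 0.889). For Kazald1 day 21 held most of it, with 1.37 (adjusted p 0.0456) against -0.35 in naive mice (adjusted p 0.875). Of these 12 genes, Bcl6 and Plekho2 were called in 11 of 12 fits without 1 mouse, Fhl3 in 9, Cd300lb in 6, Klf9 in 5 and the other 7 in 1 to 3.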

How the results depend on the processing

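The count of 12 genes at day 21 (5 higher, 7 lower) was 13 with RLE scaling and 16 with the length trend removed. It was 22 with no filter on low counts, 22 with limma-voom, 132 with DESeq2 (59 higher, 73 lower) and 3 with only the day 21 groups fitted, and it ran from 1 to 74 without 1 mouse. The 42 genes of the difference from naive mice became 262 with DESeq2 and 22 with only their 4 groups fitted, and 0 (without WT day 21 mouse 3) to 83 (without KO day 21 mouse 3) without 1 mouse. For the differences from days 7 and 14, with 0 genes each, DESeq2 gave 6 and 21, and leaving out 1 mouse gave 0 to 1 and 0 to 23. The highest of each was without KO day 21 mouse 3. The cause of these shifts was not tested. Fits with fewer mice or groups also have fewer degrees of freedom, and the part of this was not tested either. No result changed direction with a call. The medians of the bleomycin-raised and bleomycin-lowered genes ran from -0.48 to 0.07 and from -0.06 to 0.54 without 1 mouse.

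With the mouse number as a replicate block, 16 genes were called at day 21 (9 higher, 7 lower) and 28 in the difference from naive mice. Deviations of same-numbered WT and KO mice correlated at -0.09, -0.18 and -0.02 across genes. Those of differently numbered mice correlated at -0.06 to 0.15. Low correlations cannot show that mice of the same number were unrelated, and the labels do not say whether the numbers pair mice.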

Other observations

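Amd1, S-adenosylmethionine decarboxylase, was listed at 0 counts in all 3 WT mice at day 21 and at 585, 616 and 646 counts in the KO mice. It was also at 0 in 1 or more mice of every other group. Its near-identical copy Amd2 was at 98.7, 101 and 107 CPM in WT mice and 92.9, 84.4 and 82.6 CPM in KO mice. The labels do not say how counting divides reads between such copies, so the values of Amd1 are uncertain. It was not called over all 8 groups (adjusted p 0.386 by edgeR) and was called with only the day 21 groups in the fit (adjusted p 0.00157).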
